A study of Mus musculus with 4 samples.

Results

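The genes described here are the glucose transporter gene Slc2a1 and 7 enzyme genes of glycolysis (Hk1, Hk2, Gpi1, Aldoa, Tpi1, Eno1 and Pkm), at and near which Nrf2 binding was profiled in mouse esophagus. They are the rows of the deposited table with these gene names, 8 of 1940 gene rows, and each had a row. The table lists only genes with an interval called in or near them, so a gene without a call had no way to be chosen. Chromatin immunoprecipitation followed by sequencing (ChIP-seq) was done with an antibody to Nrf2 on tissue of C57BL/6 mice of 3 genotypes, with 1 library each. These were wild-type, Nrf2KO, which lacks Nrf2, and Keap1KO, which lacks Keap1, and the Nrf2KO library gives the signal of the same antibody without its target. Age, sex, the number of animals behind a library and the kind of knockout allele are not stated in the labels.

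Nrf2 is a transcription factor that binds antioxidant response elements in DNA together with small Maf proteins. Keap1 is the adaptor that marks Nrf2 for degradation, so Nrf2 accumulates where Keap1 is lost. Glycolysis begins with the entry of glucose through transporters such as Glut1, the product of Slc2a1, and its first enzymes also feed the pentose phosphate pathway, where several enzyme genes are known Nrf2 targets. In the esophagus the tissue that Nrf2 has mainly been studied in is the squamous epithelium, but whole esophagus also holds muscle and connective tissue, and the signal cannot be assigned to one of them.

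The 8 genes held 13 called intervals, 12 from the Keap1KO library and 1 from wild-type, which the table merged to 12 active regions. No interval position lay inside a RefSeq promoter window, the 300 bases from 250 before a gene start to 50 after it (build GRCm38.p6, the assembly that mm10 names). The closest window belonging to any of the genes was that of an internal Aldoa start, 112 bp from an interval position. The closest window at the tallest locus was that of Gm12758, 79 bp from the position of an interval listed under both Gpi1 and Gm12758. These windows are shown because interval positions lie beside them, on chr7:126799205-126799504 (minus strand) and chr7:34234127-34234426 (plus strand). Each runs 5′ to 3′ on the gene's strand, and capitals mark matches to the motifs searched.
Aldoa: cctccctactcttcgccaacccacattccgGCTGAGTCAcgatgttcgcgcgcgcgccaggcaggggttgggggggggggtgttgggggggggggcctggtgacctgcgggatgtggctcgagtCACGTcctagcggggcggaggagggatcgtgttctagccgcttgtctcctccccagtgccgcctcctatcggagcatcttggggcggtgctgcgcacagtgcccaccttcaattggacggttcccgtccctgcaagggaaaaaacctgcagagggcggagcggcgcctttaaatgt
Gm12758: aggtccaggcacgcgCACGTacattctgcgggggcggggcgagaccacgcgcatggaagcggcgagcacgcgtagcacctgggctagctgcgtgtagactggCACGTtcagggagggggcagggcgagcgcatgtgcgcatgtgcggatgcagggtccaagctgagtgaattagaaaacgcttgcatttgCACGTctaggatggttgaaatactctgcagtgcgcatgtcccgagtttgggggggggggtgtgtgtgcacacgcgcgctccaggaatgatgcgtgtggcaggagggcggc

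The search covered these motifs on both strands of each window: TGACNNNGC (the core of an antioxidant response element), TGANTCA (the site of AP-1 proteins) and ACGTG (the core shared by hypoxia response elements and some E-boxes). In the Aldoa window, GCTGAGTCA matched the first motif on the opposite strand, and the AP-1 match TGAGTCA lay wholly inside it. This match was on chr7:126799466-126799474, 142 bp from the nearer of the Aldoa interval positions. The only other capitals of that window are 1 match to ACGTG, read as CACGT. The Gm12758 window held 3 matches to ACGTG and none to the other motifs. The 8 genes had 14 RefSeq windows in all. TGACNNNGC was in 2 of them, of Aldoa and of an internal Hk1 start. That Hk1 window lay 46228 bp from the nearest interval position. TGANTCA was in 1 and ACGTG in 6, of 5 genes. Windows of the same gene can overlap, and an ACGTG site of Aldoa was counted in 2 such windows. Over all 32851 windows of the table, 12.4% held TGACNNNGC, 7.81% held TGANTCA and 19.6% held ACGTG. The matches are letters in reference sequence, and the sequence at the interval positions was not read. Distances are to 1 computed position per interval, and widths were not used. Whether an interval covers a window or a match was thus not tested.

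Values are peak heights, the deposited average signal over the active regions of a gene, whose unit and scaling between libraries are not stated. In the 1681 rows with 1 active region all 5043 heights were whole numbers (within 1e-9). Over all 1940 rows medians were 5 in Nrf2KO, 5.5 in wild-type and 18 in Keap1KO. The row of Nfe2l2, the gene of Nrf2, had 7, 17 and 78 in that order, which is antibody signal at the gene and no check of its deletion. With 1 library per genotype there is no replicate, so nothing below carries a test or an error, and a difference in depth between libraries cannot be told apart from a difference in binding. Folds and log2 ratios are of heights with 1 added to each, which understates the change of low rows, and a 2-fold rule describes size only.

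Slc2a1 encodes the transporter that brings glucose into most cells. Heights were 5 in Nrf2KO, 12 in wild-type and 54 in Keap1KO, from 1 interval 12775 bp into the gene (chromosome 4, position 119121520, GeneID 20525). Keap1KO was thus 4.23-fold above wild-type and 9.17-fold above Nrf2KO, and wild-type was 2.17-fold above Nrf2KO. Of the 8 genes it was second in height to Gpi1 in both wild-type and Keap1KO, and 54 of the 1940 rows were higher in Keap1KO. No wild-type interval was called there. Of the rows not called in wild-type, 57 had a height of at least 12. The interval is also listed under Mir1957, a microRNA gene, at 8259 bp upstream. Among the starts with a RefSeq promoter window, the nearest was that of Gm12867, 10648 bp away.

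Hexokinases phosphorylate glucose once it is in the cell. Hk1 had the most intervals, 3 called in Keap1KO between 85764 and 100100 bp into a gene of more than 100 kb (chromosome 10, GeneID 15275), spread over 14336 bp. Mean heights were 4.33 in Nrf2KO, 4.67 in wild-type and 27 in Keap1KO. The highest of its regions reached 33 in Keap1KO, which leaves a mean of 24 for the remaining pair. Wild-type and Nrf2KO stood nearly level at Hk1 (1.06-fold), and Keap1KO was 5.25-fold above Nrf2KO. No other gene row shares these intervals. The RefSeq start nearest to each was that of Tacr2, 27370 to 41706 bp away, against 46277 to 60613 bp for the nearest of Hk1.

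Hk2, the hexokinase that is the main form in muscle and many tumors, had the lowest heights of the 8 genes in every library, 1 in Nrf2KO, 2 in wild-type and 14 in Keap1KO. Its interval lay outside the gene, 8641 bp beyond its end (chromosome 6, position 82716384, GeneID 15277), and the nearest RefSeq start was that of Gm32480, 1178 bp away. The Keap1KO height was below the median of all rows. Keap1KO was 5-fold above wild-type and 7.50-fold above Nrf2KO, folds that rest on heights of 2 and 1.

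Gpi1 encodes glucose phosphate isomerase, which turns glucose 6-phosphate into fructose 6-phosphate and so stands where glycolysis and the pentose phosphate pathway part. Heights were 4 in Nrf2KO, 32 in wild-type and 101 in Keap1KO, and 11 rows were higher in Keap1KO. Gpi1 was the only one of the 8 genes called in wild-type as well as in Keap1KO. The wild-type interval lay 3711 bp upstream of the start and the Keap1KO interval 3743 bp upstream, 32 bp apart (chromosome 7, positions 34234016 and 34234048, GeneID 14751). No row exceeded its wild-type height, the 3 rows at this height all share these intervals, and the next highest row stood at 25. Wild-type was 6.60-fold and Keap1KO 20.4-fold above Nrf2KO, whereas Keap1KO was 3.09-fold above wild-type, under the median of all rows (3.25-fold). The same intervals are listed 361 and 329 bp upstream of Gm12758 and beyond the end of 4931406P16Rik. The nearest RefSeq start was that of Gm12762, 307 and 275 bp away. The starts of Gm12758 and Gm12762 are closer than that of Gpi1, whose assignment is by distance alone.

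Aldolase splits fructose bisphosphate into triose phosphates, and Aldoa is the form of muscle and most other tissues. It was the only one of the 8 genes where Nrf2KO stood above wild-type, with 11 in Nrf2KO, 10 in wild-type and 28.5 in Keap1KO (chromosome 7, GeneID 11674). Its ratios to wild-type (2.68-fold) and to Nrf2KO (2.46-fold) in Keap1KO were the lowest of the 8. Of all rows, 6.39% had a height of at least 11 in Nrf2KO. Aldoa was also the only one with an interval within 1 kb of the start as listed, at 831 bp, with a further one at 1503 bp. Rows with such an interval had a median Nrf2KO height of 7, against 4 for the others. What part position has in the Aldoa value was not tested. Against the RefSeq starts of Aldoa, the intervals lay 362 bp upstream and 234 bp downstream of internal starts. Their Keap1KO heights were 35 and 22, without a record of which is which. Both are also listed 6473 and 7145 bp upstream of Ppp4c, the catalytic subunit of a protein phosphatase, with the same heights.

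Tpi1, which interconverts the triose phosphates that aldolase releases, had 6 in Nrf2KO, 7 in wild-type and 25 in Keap1KO. The interval was 4896 bp beyond its end (chromosome 6, position 124805696, GeneID 21991). It is also listed 3245 bp upstream of Spsb2, which is closer to it than Tpi1, and beyond the end of Usp5, a deubiquitinase gene. Its ratio of Keap1KO to wild-type, 3.25-fold, equalled the median of all rows.

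Enolase makes phosphoenolpyruvate, the substrate of pyruvate kinase. Eno1 had 6 in Nrf2KO, 8 in wild-type and 39 in Keap1KO, from 1 interval 2835 bp into the gene (chromosome 4, position 150240032, GeneID 13806) that no other row shares. It ranked after Gpi1 and Slc2a1 in Keap1KO, 4.44-fold above wild-type and 5.71-fold above Nrf2KO, while wild-type and Nrf2KO were 1.29-fold apart.

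Pkm encodes the pyruvate kinases of muscle and of proliferating cells, made by alternative splicing. It had an interval on each side of its start, 2800 bp upstream and 2896 bp into the gene (chromosome 9, positions 59653568 and 59659264, GeneID 18746). The mean heights were 24.5 in Keap1KO, from regions of 25 and 24, 5.5 in wild-type and 4.5 in Nrf2KO. Both intervals are listed under Parp6 too, beyond its end, with the same heights. The RefSeq start nearest to the upstream interval was that of Gm51708, 2338 bp away, against 3008 bp for the nearest of Pkm.

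**Figure D1:**
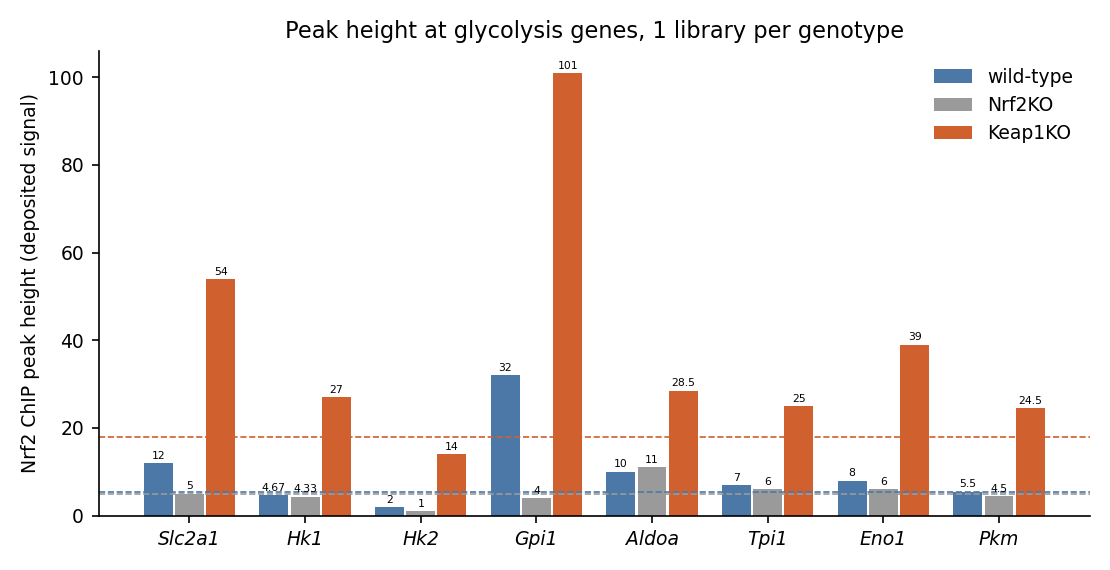
Nrf2 ChIP peak height (deposited signal, vertical axis from 0) at the 8 genes in wild-type, Nrf2KO and Keap1KO, 1 library each and so without error bars. Dashed lines are the medians of all 1940 gene rows (5.5, 5 and 18 in that order of genotypes); Gpi1 stands apart in wild-type at 32, and Hk2 is the one gene below the Keap1KO line.

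All 8 genes had a called interval in Keap1KO, as did 99.1% of all rows. In wild-type 1 of the 8 was called (4.18% of all rows), and in Nrf2KO 0 of the 8 (0% of all rows). The Keap1KO calls, with a wild-type call as well at Gpi1, are what placed these genes in the table, so they say nothing about glycolysis. With a stricter call, a height of at least 18 (the median of called Keap1KO rows), 7 of the 8 were left (51.6% of all rows) and Hk2 was lost.

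The intervals were spread along and around the genes. Only Aldoa had one within 1 kb of its listed start (26.9% of all rows), and 4 of the 8 had one within 5 kb (42.7% of all rows), these being Aldoa, Pkm, Eno1 and Gpi1. At Slc2a1, Hk1, Aldoa and Eno1 every interval lay in the gene, and at Pkm 1 of 2 did. At Hk2, Gpi1 and Tpi1 all lay outside it, 3 of the 8 against 48.5% of all rows. The table does not place intervals in exons or introns. More than 1 active region was listed for Hk1, Aldoa and Pkm, 3 of the 8 against 13.4% of all rows.

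**Figure D2:**
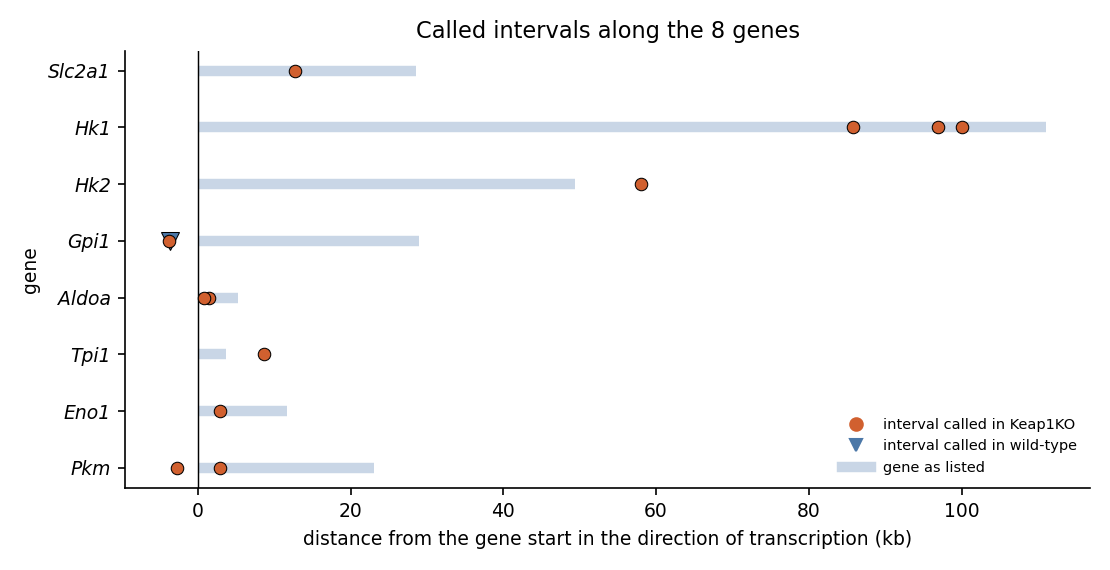
Called intervals (circles for Keap1KO, triangle for wild-type) by distance from the gene start in kb, with the gene as a bar. The single wild-type interval coincides with the Keap1KO interval upstream of Gpi1, the Hk1 intervals lie 85.8 to 100.1 kb into the gene, and those of Hk2 and Tpi1 lie beyond the gene.

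The first comparison asks how the signal changes when Keap1 is missing. Keap1KO was higher than wild-type at all 8 genes (98.7% of all rows), and at least 2-fold higher at all 8 (86.4% of all rows). The log2 ratio ran from 1.42 at Aldoa to 2.32 at Hk2, with a median of 2.03 against 1.70 over all rows. At least 4-fold was reached by 4 of the 8, namely Hk2, Hk1, Eno1 and Slc2a1 (33.9% of all rows). Because the rows were selected by a call in Keap1KO or in wild-type, mostly in Keap1KO, such a choice raises this ratio, and how far it does so was not tested. The Keap1KO heights of 7 of the 8 genes were above the median of all rows.

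With each library scaled to the same median over all rows, which shifts Keap1KO by -1.71 and Nrf2KO by 0.14 on the log2 scale, the median of the 8 genes was 0.41 for Keap1KO over wild-type, against 0.13 over all rows. None of the 8 was then 2-fold higher (0 of 8, against 11.3% of all rows). Gpi1 and Aldoa then fell to -0.05 and -0.18. By construction, such scaling brings the typical ratio of these rows close to equality. It takes out any gain in binding shared by most rows along with depth, and cannot separate them. As deposited, 5 of the 8 genes lay above the median ratio of all rows, Tpi1 equalled it, and Gpi1 and Aldoa lay below it.

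The second comparison, of wild-type with Nrf2KO, asks how much Nrf2 is bound while Keap1 is present. Wild-type was higher at 7 of the 8 genes, all but Aldoa (52.2% of all rows), and at least 2-fold higher at 2, Gpi1 and Slc2a1 (17.5% of all rows). The log2 ratio was 2.72 at Gpi1 and 1.12 at Slc2a1, and 13 rows had a larger ratio than Gpi1. Hk2 followed with 0.58, from heights of 2 and 1. Eno1, Pkm, Tpi1 and Hk1 lay between 0.09 and 0.36, and Aldoa at -0.13. The median of the 8 was 0.30, against 0.15 over all rows. At 5 of the 8 genes, Hk1, Hk2, Tpi1, Pkm and Aldoa, wild-type and Nrf2KO heights differed by at most 1, as at 35.4% of all rows. Without Gpi1, 1 of 7 was 2-fold higher. With 5 added to each height Slc2a1 also fell short, leaving 1 of 8 (3.87% of all rows). Under equal medians Hk1 went to -0.02.

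The third comparison, of Keap1KO with Nrf2KO, sets the largest signal against the antibody's background. All 8 genes were higher in Keap1KO (98.9% of all rows), each at least 2-fold (83.3% of all rows), with log2 ratios from 1.30 at Aldoa to 4.35 at Gpi1 and a median of 2.45, against 1.83 over all rows. Slc2a1 followed Gpi1 with 3.20 and Hk2 with 2.91. Under equal medians 3 of the 8, against 19.4% of all rows, were 2-fold higher, and Aldoa went to -0.43. Both of its libraries also enter the other comparisons. No row was called in Nrf2KO, and the files do not say if genes called there were dropped. As in the first comparison, choosing rows mostly by a call in Keap1KO raises this ratio, and how far it does so was not tested.

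**Figure D3:**
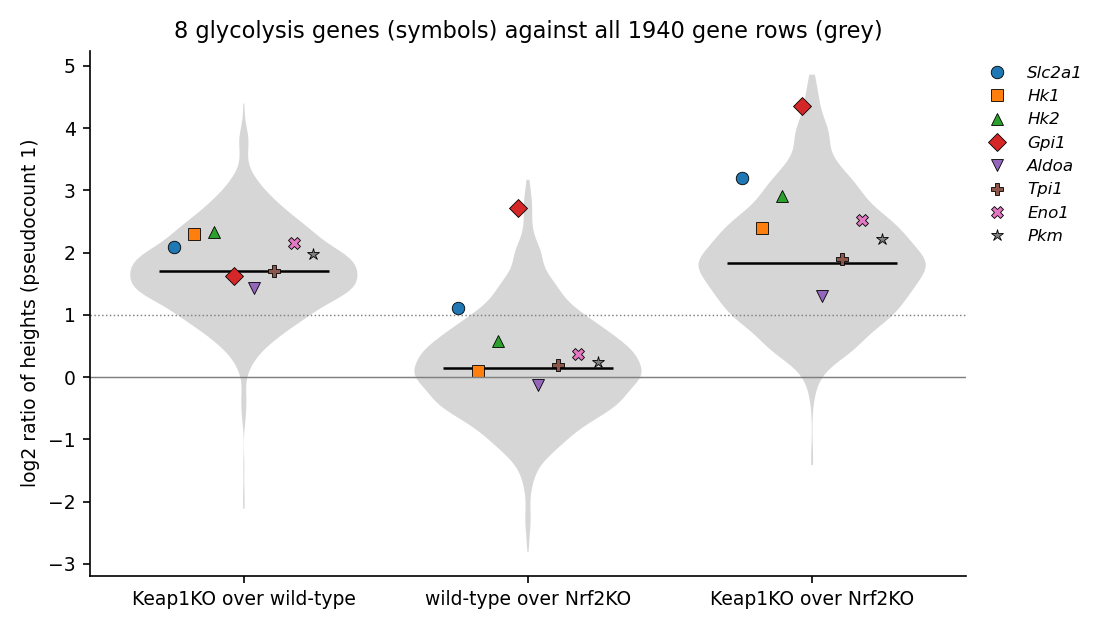
Log2 ratios of heights (pseudocount of 1) for the 3 comparisons, the 8 genes as symbols over the spread of all 1940 gene rows in grey, with the median of all rows as a black line and the 2-fold level dotted. Gpi1 lies at 2.72 for wild-type over Nrf2KO, above the other 7 genes, but at 1.63, below the black line, for Keap1KO over wild-type.

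The part of the Keap1KO signal already seen in wild-type was described by dividing the excess of wild-type over Nrf2KO by the excess of Keap1KO over Nrf2KO. It was 28.9% at Gpi1 and 14.3% at Slc2a1. The others ran from 1.5% at Hk1 to 7.69% at Hk2, and Aldoa was at -5.71%. At these genes wild-type and Nrf2KO heights differed by at most 2 (Eno1), so their shares rest on small differences and their order is not firm. Over the 1919 rows with Keap1KO above Nrf2KO the median was 3.70%, with quartiles of -11.8% and 15%. Gpi1 was thus the one gene of the 8 outside these quartiles. These shares move with any difference in depth between libraries.

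Other genes of glucose use were looked up in a list of 45 genes for glucose transport, glycolysis, lactate and pyruvate handling. The list was written with the 8 genes known, so its share is not independent evidence. Of its genes 11 (24.4%) had a row, the 8 genes above and 3 more, and 34 had none. Of the 21900 protein-coding genes of RefSeq, 7.67% had a row. The 8 genes were known to have rows, so the 24.4% was raised in advance and shows no excess over that share. Among the list genes other than these 8, only 3 had a row, against the 34 without. Pfkfb4, an enzyme that sets the level of fructose 2,6-bisphosphate, an activator of glycolysis, had 5 in Nrf2KO, 11 in wild-type and 58 in Keap1KO. Eno4, an enolase of sperm, had 3, 10 and 43 in the same order, from an interval beyond the gene's end that is shared with 4930506M07Rik. Pfkfb2, a further enzyme of fructose 2,6-bisphosphate, had 7.33, 4.67 and 16, and its intervals also lie near Yod1. In wild-type Pfkfb4 (2-fold) and Eno4 (2.75-fold) reached 2-fold above Nrf2KO, which makes 4 of the 11 against 17.5% of all rows, whereas Pfkfb2 stood below it.

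By step, rows were found for 1 of 5 glucose transporters, 2 of 5 hexokinases, 1 of 3 aldolases, 2 of 4 enolases, 1 of 2 pyruvate kinases and 2 of 5 enzymes of fructose 2,6-bisphosphate, and for the single genes of both isomerases. No row was listed for the 3 phosphofructokinases, which catalyse the committed step of glycolysis, or for the genes of glyceraldehyde phosphate dehydrogenase, phosphoglycerate kinase, phosphoglycerate mutase, lactate dehydrogenase, lactate transport and pyruvate dehydrogenase kinase, 19 genes in 7 steps. A gene without a row has no height here, and nothing can be said of the signal at it.

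**Figure D4:**
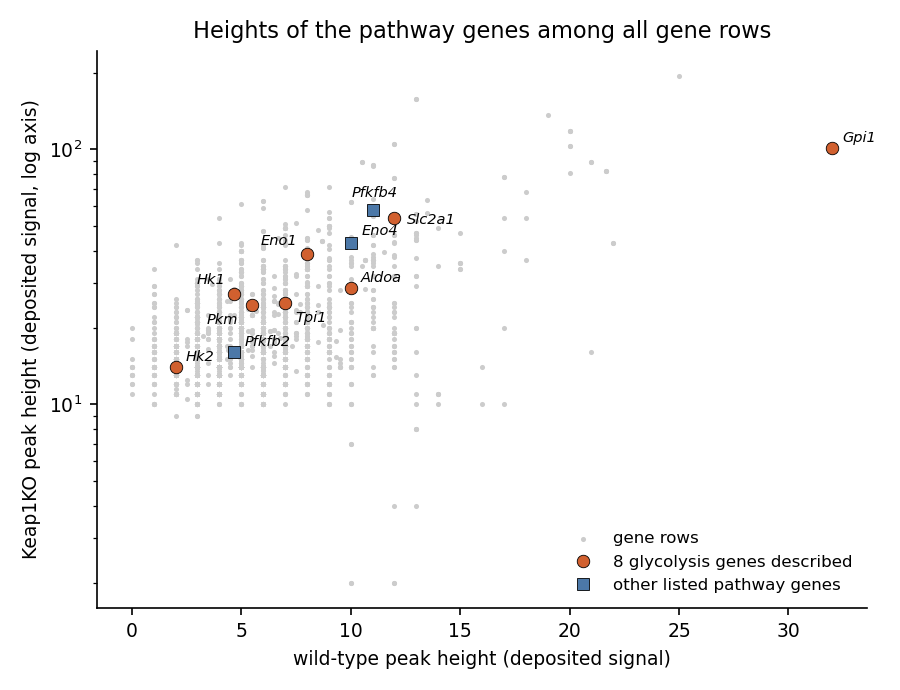
Wild-type height (horizontal, linear) against Keap1KO height (vertical, log axis) for all gene rows in grey, the 8 genes as circles and the 3 other pathway genes with a row as squares. Gpi1 is at 32 and 101, to the right of every row outside its own locus, and Pfkfb4 (11 and 58) lies beside Slc2a1 (12 and 54).

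For each gene the row with the most similar heights was found by Euclidean distance in log2(height + 1) over the 3 libraries, leaving out rows with the same intervals. For Slc2a1 it was Pfkfb4, at a distance of 0.15. For Aldoa it was Zranb2, with 11 in Nrf2KO, 10 in wild-type and 28 in Keap1KO (0.025), and for Eno1 it was Pfn2, with 6, 8 and 38 in that order (0.037). The rows nearest to Hk1, Tpi1 and Pkm were Ptpn14 (0.10), Camk1d (0.097) and Strn (0.17). Duox1 was nearest to Hk2 (0.093, 2 rows tied). Gpi1 had no near neighbour, the closest being Mir3076 at 0.67 (2 rows tied), with 5, 21 and 89. The likeness is of 3 heights only.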

How the data were processed

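Nrf2 ChIP-seq libraries of wild-type, Nrf2KO and Keap1KO esophagus, 1 each, were read from 1 table of gene rows. The pooled input library was not analysed here. Per the submitters' processing notes, the authors used BWA and MACS2 2.1.0 on build mm10. Their parameters, library depth and scaling were not given in the sources used here, so no counting interval is given. Per the file headers, the deposited values are the signal of each library (average peak height per gene), the highest region height, and flags and numbers of called intervals, which are no measurement on a fixed scale. Interval positions were computed from the listed gene start, strand and distance. Table gene IDs were matched to RefSeq (GRCm38.p6) for 1878 of 1940 rows.

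Log2 ratios with a pseudocount of 1 were computed with pandas 2.3.3 and numpy 2.4.6 under Python 3.11.15. The ratio step was run on wild-type heights raised by a known factor, which checks its arithmetic and nothing about noise or depth. Alternatives were other pseudocounts, folds and call rules, a filter on low rows, equal medians and subsets of the genes. The text names the 8 genes, the listed pathway genes with a row, genes sharing an interval, and the nearest row by height. Some genes whose RefSeq start is nearest to an interval are named too. The genes and lists were chosen with earlier results of these data known. Rows sharing intervals are not separate measurements.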

Additional observations from a re-analysis of the deposited data

How the results depend on the processing

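No paired analysis was possible because there is only 1 library per genotype. Leaving out a library was not possible for the same reason. Of 202 values under an alternative, 147 kept their sign and stayed within 0.25 (log2) or a factor of 1.5 (counts) of the value reported. A further 51 moved and 4 changed sign. Among the 4 is Hk1 in wild-type over Nrf2KO, which went only from 0.089 to -0.023, within the 0.25. The subset without Gpi1 was chosen after seeing the data. By construction, subsets and higher folds can only lower a count, and a larger pseudocount makes single ratios smaller. A subset of rows cannot change the ratio of a single gene either. Many of the 147 are such ratios, which were bound to stay the same and are no sign of stability. Otherwise the cause was not tested. Unknown depth limits every ratio between libraries. Equal medians take out a gain shared by most rows along with depth.

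In the order Keap1KO over wild-type, wild-type over Nrf2KO, Keap1KO over Nrf2KO, a pseudocount of 5 gave medians of 1.504 and 1.721 for the first and the third and 1 gene 2-fold higher for the second. Equal medians gave 0.41 and 0.72 for the first and the third, with 0 and 3 genes 2-fold higher. They turned Gpi1 (-0.051) and Aldoa (-0.18) in the first, Hk1 (-0.023) in the second and Aldoa (-0.43) in the third. The 5 genes with 1 active region had 5 and 5 genes 2-fold higher in the first and the third, and medians of 0.58 and 2.91 in the second and the third. The 5 genes with an interval within 10 kb had a median of 1.70 in the first, and 5, 1 and 5 genes 2-fold higher. At a threshold of 4-fold, 4 genes remained in the first and 1 in the second. Without Gpi1, 1 gene was left in the second. Counting any height of at least 12 as a call gave 2 genes in wild-type (Gpi1 and Slc2a1). Within 5 kb of the start lay intervals of 4 genes. With each distinct set of intervals counted once (1469), the shares of rows 2-fold higher were 88.0%, 18.2% and 85.4%.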
